A study of Homo sapiens with 14 samples.

Results

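RBM39 is the splicing factor that indisulam directs to a ubiquitin ligase for degradation, and this report follows its RNA together with the RNA of the related factor RBM23 and of the ligase itself, which is built from DCAF15, DDA1, DDB1 and CUL4A or CUL4B. These 7 genes were chosen by what their proteins do, with earlier results of these data known, out of 60683 gene identifiers in the count tables. RNA from 2 human cell lines was sequenced in 14 libraries, 2 for each of 7 groups. A549, a lung cancer line, was either left untreated or given palbociclib (2 μM, 10 days), indisulam (0.5 μM, 10 days), both drugs together at those doses (10 days, called the combination here) or PF-06873600 (0.5 μM, 7 days). SUM159, a triple negative breast cancer line, was left untreated or given PF-06873600 (0.5 μM, 7 days). Palbociclib inhibits the cell cycle kinases CDK4 and CDK6, and PF-06873600 is described as an inhibitor of CDK2 as well as of these kinases. When untreated cells were harvested is not given in the sources used here, and in A549 the same 2 untreated libraries served as the control of every treatment. The series describes its duplicates as technical, so the p-values here measure only the spread between these samples, which may be technical. SUM159 cells given palbociclib or indisulam were not analysed here.

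Indisulam is an aryl sulfonamide that works as a molecular glue. It fills a gap between DCAF15, which picks substrates for a cullin-RING ligase, and the RNA recognition motif of RBM39 or RBM23, and the protein held there is tagged with ubiquitin and destroyed by the proteasome. The drug therefore acts on protein, and an RNA count is not a check of whether RBM39 was degraded, nor of the treatment labels. In the ligase DCAF15 is the substrate receptor, DDB1 the adaptor that links the receptor to the cullin, DDA1 a small subunit that stabilises the receptor on DDB1, and CUL4A and CUL4B are alternative scaffolds that carry the catalytic end.

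Total counts on genes ran from 13060374 to 21149256 per library, so that 3 counts, taken as the smallest amount that can be told from 0, correspond to 0.142 to 0.230 CPM, the unit used here, which is a count scaled to a common library total. All 7 genes passed the filter on low counts in both lines, and their lowest count in any library was 141. The lines differed in their markers. A549 carried the epithelial genes CDH1 (156 CPM) and KRT18 (2521 CPM) and the detoxifying enzyme AKR1B10 (6482 CPM) in untreated cells. Untreated A549 also held the mesenchymal genes VIM (665 CPM) and ZEB1 (33.3 CPM), and VIM was at 1767 CPM with the combination. CDKN2A had no count in any of the 10 A549 libraries and 0 to 3 counts in the 4 SUM159 libraries. It therefore did not tell the lines apart. Untreated SUM159 had the epithelial keratins KRT8 (416.8 CPM) and KRT18 (309.0 CPM) but little EPCAM (0.641 CPM) or CDH1 (0.0905 CPM), abundant vimentin (VIM, 4162 CPM), and 0 or near 0 CPM of the hormone receptors ESR1 and PGR. Among 3 markers of other cells, the leukocyte gene PTPRC, the endothelial gene PECAM1 and the fibroblast gene COL1A1, PTPRC and PECAM1 reached 9.62 and 11.2 CPM in untreated SUM159 and 19.1 and 26.6 CPM with PF-06873600. The summed level of these 3 genes lay between 1620 and 1721 CPM in untreated SUM159 and between 3179 and 3303 CPM after PF-06873600. Nearly all of this was COL1A1, at means of 1649 and 3195 CPM. In A549 the sum went from 3.40 to 3.67 CPM in untreated cells to between 73.6 and 73.9 CPM in the combination, again nearly all COL1A1. The part of these markers in the results was not tested. In bulk RNA, fewer cells of a type and less RNA per cell cannot be told apart.

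RBM39 (ENSG00000131051) lies on hg38 at chr20:35701347-35742312 on the minus strand, and its MANE Select transcript, the reference transcript of a gene, has 17 exons. It encodes an RNA-binding protein that helps choose splice sites together with the U2AF factor. Untreated A549 libraries had 149.5 and 134.9 CPM of RBM39. With indisulam they had 243.9 and 263.4 CPM, with no overlap between the groups. The fold was 1.78, a log2 fold change of 0.83 (SE 0.08, edgeR adjusted p = 7.46e-07), and 19.1% of the 15780 genes tested moved further in either direction. The RNA of the protein that indisulam is known to remove was thus higher, not lower, after 10 days of the drug.

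With the combination RBM39 was at 229.2 and 226.6 CPM, again above both untreated libraries (log2 fold change 0.68, SE 0.08, edgeR adjusted p = 2.13e-06). These values lay just under those with indisulam alone, and the difference of -0.15 (SE 0.08) did not pass the test (edgeR adjusted p = 0.109). In the model of those 2 groups alone it did pass (edgeR adjusted p = 0.0140). With palbociclib alone the libraries had 120.1 and 141.6 CPM. They overlapped the untreated ones, and the log2 fold change was -0.12 (SE 0.08, edgeR adjusted p = 0.351).

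PF-06873600, the kinase inhibitor, went with less RBM39 RNA in both lines. In A549 the libraries had 99.7 and 96.1 CPM, both under every other A549 library (log2 fold change against untreated -0.54, SE 0.08, edgeR adjusted p = 4.25e-05). In SUM159 RBM39 stood at 216.1 and 218.1 CPM in untreated cells and at 116.1 and 116.6 CPM after the drug. That is a log2 fold change of -0.90 (SE 0.05, edgeR adjusted p = 8.21e-10), and the groups were well apart. RBM39 has a processed pseudogene on chromosome X, RBM39P1, which held at most 7 counts in any library, and no annotated gene shares exon bases with it on the other strand.

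RBM23 (ENSG00000100461, chr14:22893204-22919182, minus strand, 14 exons in the MANE Select transcript) encodes the closest relative of RBM39 and is the other known substrate that indisulam brings to DCAF15. Its RNA did not share the rise. Untreated A549 had 99.8 and 102.9 CPM and indisulam-treated A549 99.9 and 99.7 CPM. These values overlap, with a log2 fold change of -0.02 (SE 0.06, edgeR adjusted p = 0.775). With the combination RBM23 fell to 81.0 and 82.1 CPM, below both single drugs and untreated cells (log2 fold change against untreated -0.31, SE 0.06, edgeR adjusted p = 2.71e-04). With palbociclib alone it was at 99.0 and 93.9 CPM (log2 fold change -0.07, SE 0.06, edgeR adjusted p = 0.454).

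After PF-06873600, RBM23 was at 71.1 and 72.0 CPM in A549, the lowest of the A549 groups. The log2 fold change of -0.50 (SE 0.06, edgeR adjusted p = 4.89e-06) was close to that of RBM39 in the same cells. In SUM159 the gene went from 67.5 and 66.0 CPM to 46.7 and 47.5 CPM, with no overlap (log2 fold change -0.50, SE 0.06, edgeR adjusted p = 2.81e-06). RBM23 shares 184 exon bases, 1.31% of its exons, with PRMT5-AS1 on the other strand.

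The ratio of RBM39 to RBM23 within a library does not depend on how libraries are scaled. Its log2 value was 0.49 ± 0.14 (SD, n = 2) in untreated A549 and 0.44 ± 0.22 with palbociclib. It stood at 1.34 ± 0.08 with indisulam and 1.48 ± 0.03 with the combination, so the A549 libraries that received indisulam lie apart from those that did not. With PF-06873600 it was 0.45 ± 0.05 in A549, where both genes were lower. In SUM159 the log2 ratio was 1.70 ± 0.03 in untreated cells and 1.30 ± 0.01 after PF-06873600. These ratios are a description, with no test.

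**Figure D1:**
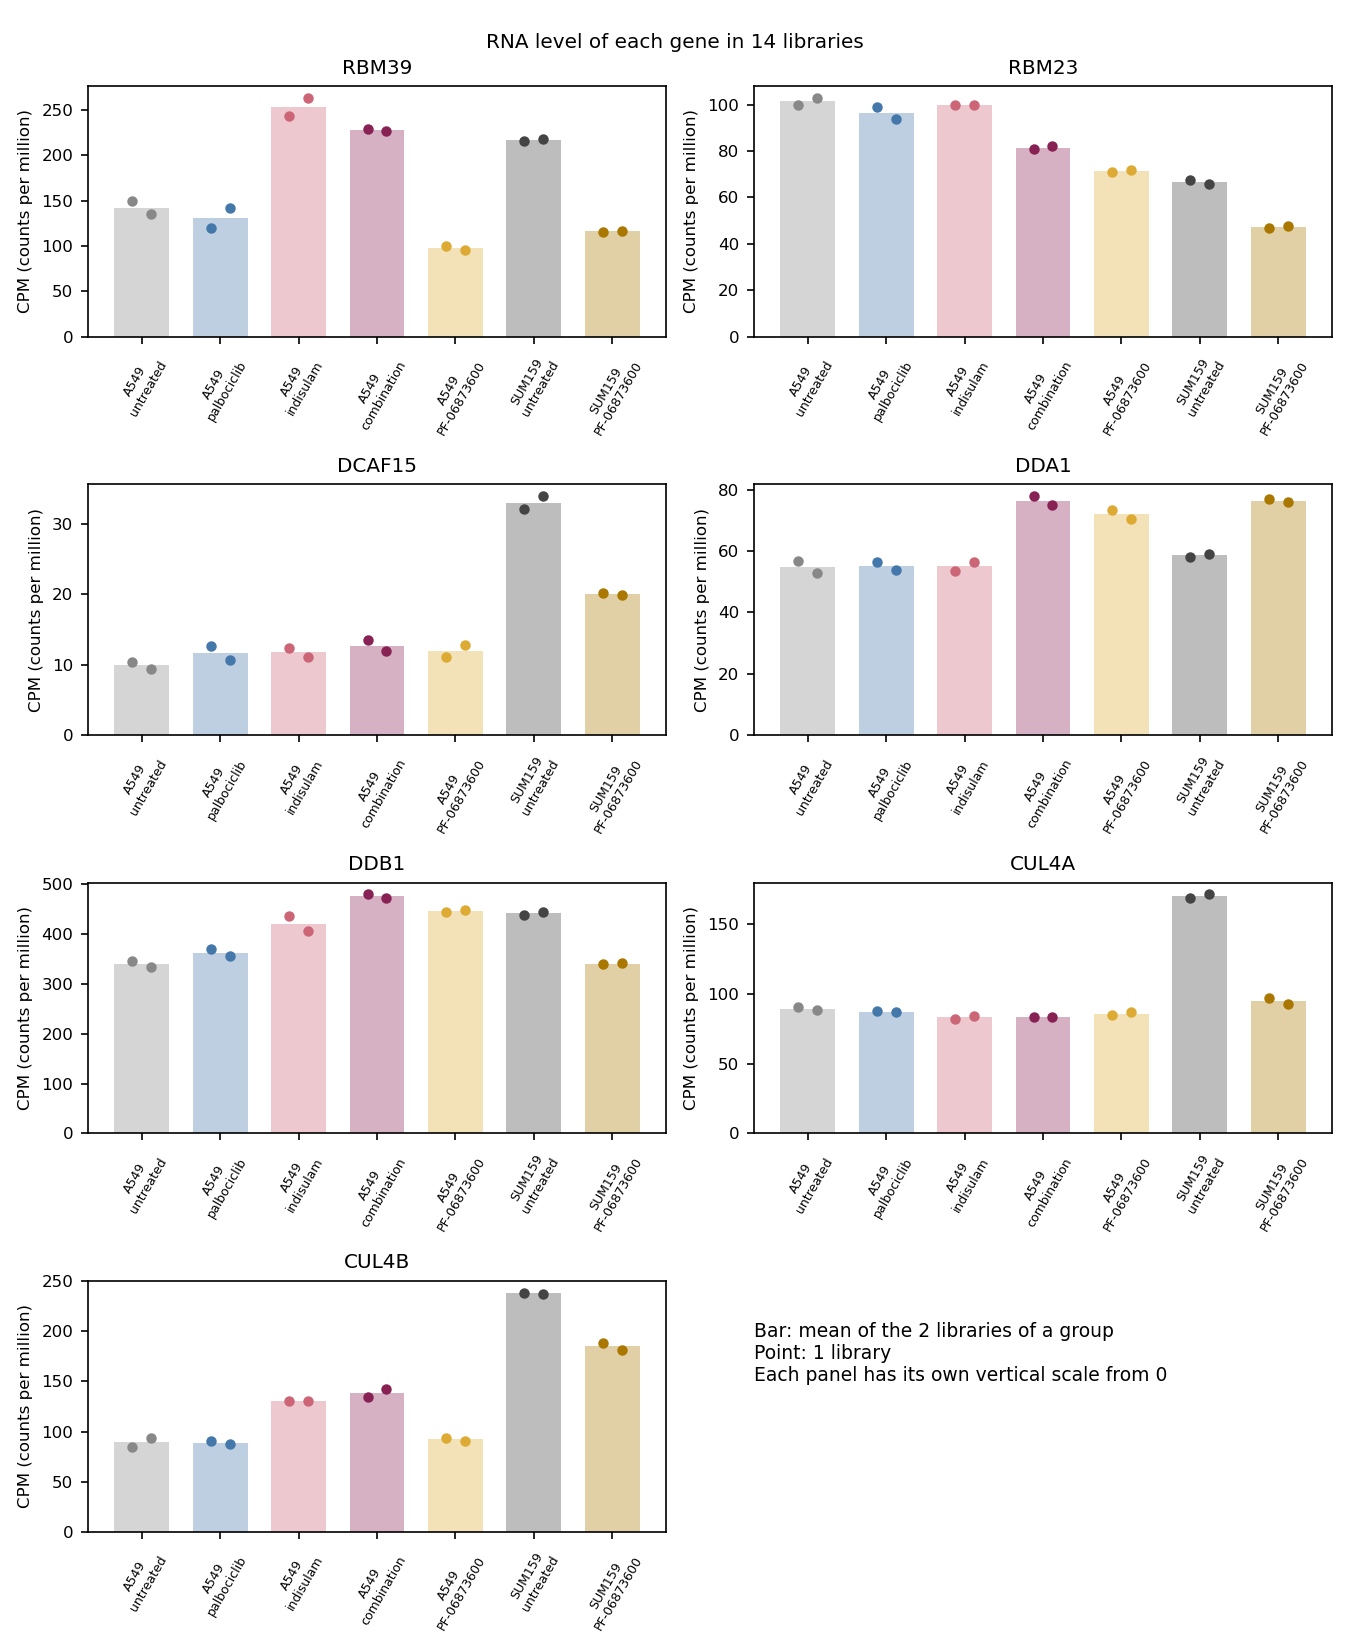
RNA level of the 7 genes, in CPM on a vertical axis from 0, in each of 14 libraries (points) with the mean of 2 libraries per group (bars); each panel has its own scale. RBM39 reaches 243.9 and 263.4 CPM with indisulam against 149.5 and 134.9 CPM in untreated A549, and DCAF15 goes from 32.1 and 33.9 CPM in untreated SUM159 to 20.2 and 19.9 CPM with PF-06873600.

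DCAF15 (ENSG00000132017, chr19:13952509-13961449, plus strand, 13 exons) encodes the receptor on which the glue acts, and a cell without it does not degrade RBM39 under the drug. Untreated A549 libraries had 10.4 and 9.40 CPM (153 and 141 counts), and indisulam-treated ones 12.4 and 11.1 CPM. Both treated libraries were above both untreated ones, but the log2 fold change of 0.25 (SE 0.14) did not pass the test (edgeR adjusted p = 0.152). Its standard error was the widest of the 7 genes.

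With the combination DCAF15 was at 13.5 and 11.97 CPM, and the log2 fold change against untreated of 0.36 (SE 0.13) passed narrowly (edgeR adjusted p = 0.0296). This call was lost with TMM scaling, which centres most genes on no change (0.28, adjusted p = 0.0852), with upper-quartile scaling (0.31, adjusted p = 0.0559) and with DESeq2 (0.32, adjusted p = 0.160). It was also lost without combination replicate 1 (0.27, adjusted p = 0.182) and without untreated replicate 2 (0.29, adjusted p = 0.122). Palbociclib gave 12.6 and 10.6 CPM (log2 fold change 0.22, SE 0.14, edgeR adjusted p = 0.308) and PF-06873600 11.03 and 12.8 CPM (0.27, SE 0.14, edgeR adjusted p = 0.101). All 8 treated A549 libraries were therefore above both untreated ones in DCAF15, by amounts that mostly did not pass the test.

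SUM159 held more DCAF15 than A549. Untreated SUM159 libraries had 32.1 and 33.9 CPM (533 and 542 counts), and PF-06873600-treated ones 20.2 and 19.9 CPM. The log2 fold change of -0.72 (SE 0.08) passed the test (edgeR adjusted p = 1.23e-06), and the treated level was still above that of every A549 library. DCAF15 shares 190 exon bases, 6.45% of its exons, with PODNL1 on the opposite strand, and the use of strand in counting is not given in the sources used here.

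DDA1 (ENSG00000130311, chr19:17309518-17323298, plus strand, 5 exons) encodes the small subunit that sits between DDB1 and the receptor. Neither single drug changed it past the threshold. It was at 56.7 and 52.9 CPM in untreated A549, at 53.5 and 56.5 CPM with indisulam and at 56.3 and 53.9 CPM with palbociclib. The 3 groups overlap, and both log2 fold changes were 0.01 (SE 0.07). With both drugs together DDA1 rose to 77.9 and 75.0 CPM, above every library of the single drugs (log2 fold change against untreated 0.48, SE 0.07, edgeR adjusted p = 2.03e-05).

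The combination therefore differed from the sum of the single-drug changes on the log2 scale. That difference, tested as an interaction, was 0.47 for DDA1 (SE 0.10, edgeR adjusted p = 0.00247), and DDA1 was the 1 gene of the 7 for which it passed, against 25.2% of all genes tested (10.7% higher and 14.5% lower). For RBM39 the interaction was -0.04 (SE 0.11, edgeR adjusted p = 0.852), and for RBM23 -0.22 (SE 0.08, edgeR adjusted p = 0.0674). Leaving out untreated replicate 2 brought RBM23 past the threshold (-0.24, edgeR adjusted p = 0.0286), which makes 2 genes.

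PF-06873600 also went with more DDA1, and here the lines looked alike. A549 had 73.5 and 70.6 CPM after the drug (log2 fold change 0.39, SE 0.07, edgeR adjusted p = 1.85e-04). SUM159 went from 58.0 and 59.2 CPM to 77.1 and 76.0 CPM (log2 fold change 0.38, SE 0.06, edgeR adjusted p = 2.66e-05). The difference between the 2 responses was -0.01 (SE 0.09, edgeR adjusted p = 0.981). DDA1 shares 76 exon bases, 1.66% of its exons, with ANO8 on the other strand, and it belongs to one of the senescence gene lists that the study used.

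DDB1 (ENSG00000167986, chr11:61299451-61342596, minus strand, 27 exons) encodes the adaptor of the ligases built on CUL4A or CUL4B, and it also takes part in recognising ultraviolet damage in DNA. Untreated A549 had 345.2 and 333.5 CPM, and indisulam-treated A549 435.4 and 406.5 CPM, without overlap (log2 fold change 0.31, SE 0.05, edgeR adjusted p = 3.55e-04). The combination gave 479.4 and 473.1 CPM, higher again (log2 fold change against untreated 0.49, SE 0.05, edgeR adjusted p = 1.99e-06). The step from indisulam alone to the combination was 0.18 (SE 0.05, edgeR adjusted p = 0.0152), and it no longer passed without combination replicate 1 (0.17, adjusted p = 0.0862), combination replicate 2 (0.19, adjusted p = 0.0593) or indisulam replicate 2 (0.13, adjusted p = 0.161).

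With palbociclib DDB1 was at 370.0 and 355.1 CPM, above both untreated libraries but with a log2 fold change of 0.10 (SE 0.05, edgeR adjusted p = 0.280). PF-06873600 moved DDB1 in opposite directions in the 2 lines. In A549 it rose to 444.9 and 447.8 CPM (log2 fold change 0.40, SE 0.05, edgeR adjusted p = 2.44e-05). In SUM159 it fell from 437.6 and 445.0 CPM to 339.4 and 341.8 CPM (log2 fold change -0.37, SE 0.06, edgeR adjusted p = 2.43e-05). The treated SUM159 libraries thus stood at the level of untreated A549. DDB1 shares 493 exon bases, 3.18% of its exons, with TKFC on the other strand.

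CUL4A (ENSG00000139842, chr13:113208193-113267108, plus strand, 20 exons) and CUL4B (ENSG00000158290, chrX:120505920-120604074, minus strand, 20 exons) encode the alternative scaffolds. CUL4A changed little in A549. Its 10 A549 libraries all lay between 82.1 and 90.1 CPM, with 90.1 and 88.0 CPM in untreated cells and 82.1 and 84.1 CPM with indisulam. The log2 fold change with indisulam was -0.10 (SE 0.06, edgeR adjusted p = 0.174), and with the combination -0.10 (SE 0.06, edgeR adjusted p = 0.149). Both crossed the threshold under TMM scaling, at -0.18 with adjusted p = 0.0245 and -0.18 with adjusted p = 0.0147, and under upper-quartile scaling, at -0.15 with adjusted p = 0.0413 and -0.15 with adjusted p = 0.0316.

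CUL4B was higher wherever indisulam was present. It was at 85.0 and 93.7 CPM in untreated A549, 90.7 and 87.4 CPM with palbociclib and 93.8 and 91.0 CPM with PF-06873600. With indisulam it reached 131.0 and 130.3 CPM (log2 fold change 0.55, SE 0.06, edgeR adjusted p = 7.59e-06) and with the combination 134.5 and 142.2 CPM (0.63, SE 0.06, edgeR adjusted p = 6.00e-07). The 4 libraries with indisulam lay above the 6 A549 libraries without it.

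In SUM159 both scaffolds were lower after PF-06873600. CUL4A fell from 168.4 and 171.1 CPM to 97.2 and 92.7 CPM (log2 fold change -0.84, SE 0.05, edgeR adjusted p = 2.35e-09), near the level in A549. CUL4B fell less, from 238.8 and 237.6 CPM to 188.4 and 181.9 CPM (log2 fold change -0.36, SE 0.05, edgeR adjusted p = 2.08e-05), and stayed above every A549 library. CUL4A shares 437 exon bases, 5.59% of its exons, with PCID2 on the other strand, and its pseudogene CUL4AP1 had no count in any library. CUL4B shares none.

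The log2 ratio of CUL4B to CUL4A within a library was 0.00 ± 0.12 (SD, n = 2) in untreated A549, 0.03 ± 0.03 with palbociclib and 0.11 ± 0.06 with PF-06873600. It was 0.65 ± 0.03 with indisulam and 0.73 ± 0.06 with the combination. In SUM159 it was 0.49 ± 0.02 in untreated cells and 0.96 ± 0.01 after PF-06873600, where both scaffolds were lower and CUL4A by more. The balance between the scaffold RNAs therefore leaned to CUL4B in those 3 treated groups, in SUM159 with CUL4A falling further than CUL4B and in A549 with more CUL4B.

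**Figure D2:**
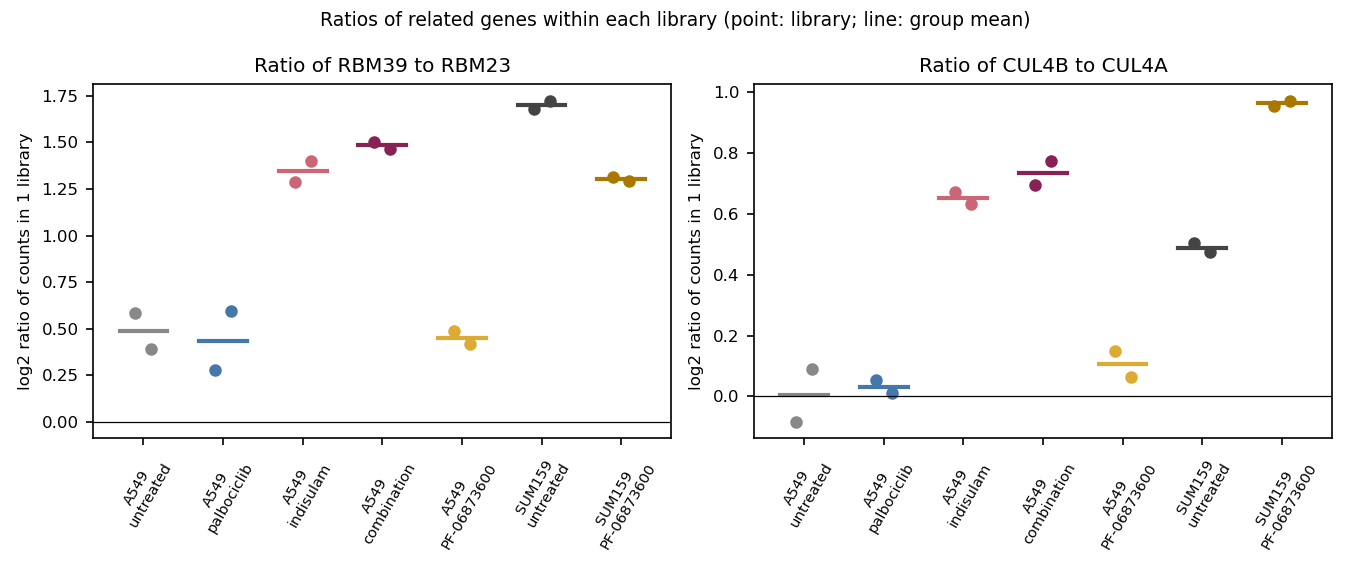
Log2 ratio of RBM39 to RBM23 and of CUL4B to CUL4A within each library (points) with group means (lines); the horizontal line at 0 marks equal counts. The 4 A549 libraries with indisulam stand above the 6 without it in both panels, at group means of 1.34 and 1.48 for RBM39 to RBM23 and 0.65 and 0.73 for CUL4B to CUL4A.

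Counted over the 7 genes, indisulam alone changed 3 past the threshold, RBM39, DDB1 and CUL4B, all higher. The threshold was passed by 45.5% of the 15780 genes tested, 28% higher and 17.5% lower, and under TMM scaling the split of these calls moved from 61.6% higher to 50.4% higher. The median log2 fold change was 0.25 over the 7 genes and 0.08 over all genes. With palbociclib alone edgeR called 0 of the 7, where 15.7% of all genes passed (8.3% higher and 7.4% lower). None of them had an unadjusted p under 0.05, and DESeq2 also called 0.

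Against untreated A549 the combination changed 6 of the 7, RBM39, DCAF15, DDA1, DDB1 and CUL4B higher and RBM23 lower, beside 65.2% of all genes (35.1% higher and 30% lower). The median log2 fold change was 0.48 for the 7 and 0.05 for all genes. Against palbociclib it changed 5 (60.4% of all genes, 33.5% higher and 26.9% lower), with RBM39 higher by a log2 fold change of 0.80 (SE 0.08, edgeR adjusted p = 5.14e-07) and CUL4B by 0.64 (SE 0.06, edgeR adjusted p = 6.90e-07). DDA1 and DDB1 were also higher, and RBM23 lower. Against indisulam it changed 3 (46% of all genes, 22% higher and 23.9% lower), DDA1 and DDB1 higher and RBM23 lower by a log2 fold change of -0.29 (SE 0.06, edgeR adjusted p = 9.37e-04). Adding palbociclib to indisulam thus moved DDA1, DDB1 and RBM23, and adding indisulam to palbociclib moved those and also RBM39 and CUL4B.

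PF-06873600 changed 4 of the 7 in A549, RBM39 and RBM23 lower and DDA1 and DDB1 higher, beside 56.3% of all genes (28.5% higher and 27.8% lower), with a median log2 fold change of 0.05 for the 7 and -0.01 for all. In SUM159 it changed all 7, DDA1 higher and the other 6 lower, beside 73.7% of all genes (38.1% higher and 35.6% lower), with medians of -0.50 and 0.02. Whether the 7 genes differ from other genes as a group was not tested. As with every value above, the A549 comparisons share their untreated libraries.

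**Figure D3:**
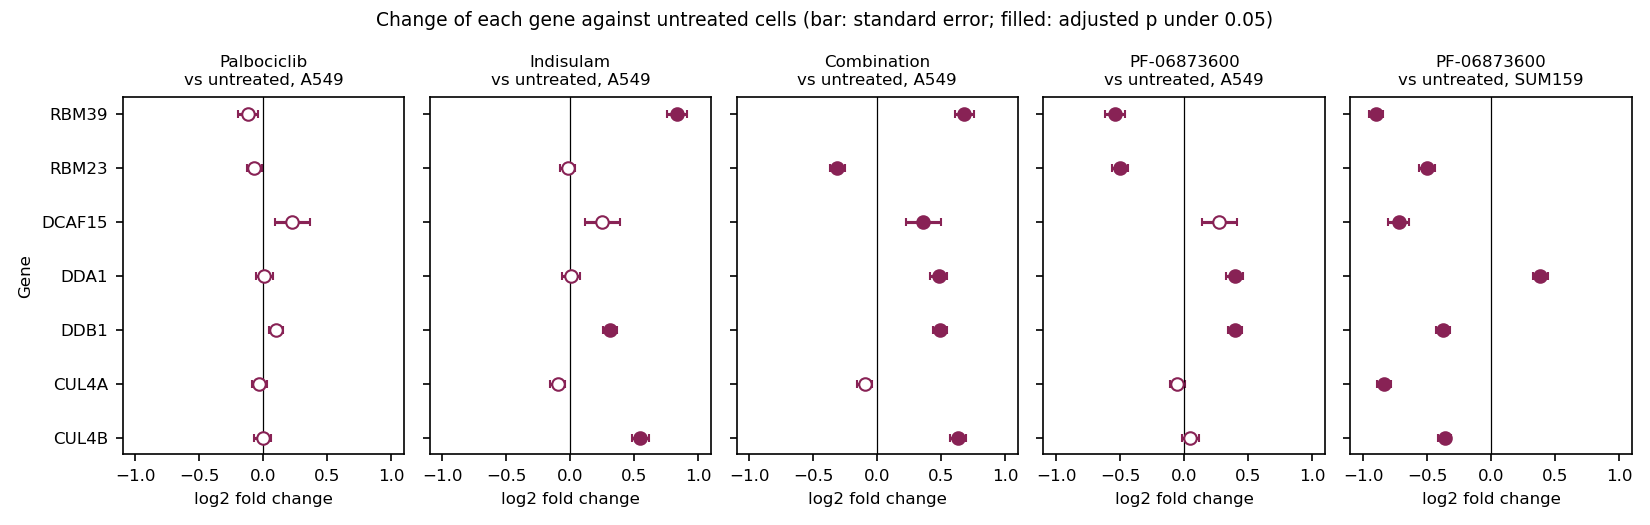
Log2 fold change against untreated cells (horizontal axis) of the 7 genes in 5 comparisons; bars are standard errors and filled points have an edgeR adjusted p under 0.05. RBM39 lies at 0.83 with indisulam, 0.68 with the combination, -0.54 with PF-06873600 in A549 and -0.90 with PF-06873600 in SUM159.

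The response to PF-06873600 differed between the lines for 5 of the 7 genes when the difference itself was tested in a model of both lines, where 53% of all genes passed (25.8% higher and 27.2% lower). All 5 differences were negative, meaning a lower log2 fold change in SUM159 than in A549, not a smaller change. They were -0.996 for DCAF15 (SE 0.16, edgeR adjusted p = 2.97e-05), -0.79 for CUL4A (SE 0.08, edgeR adjusted p = 5.40e-08) and -0.77 for DDB1 (SE 0.07, edgeR adjusted p = 5.41e-08). For CUL4B the difference was -0.41 (SE 0.08, edgeR adjusted p = 3.24e-04) and for RBM39 -0.36 (SE 0.10, edgeR adjusted p = 0.00526), the last of which missed the threshold under upper-quartile scaling (-0.23, adjusted p = 0.0654). RBM23 and DDA1 had differences of -0.00 and -0.01 (SE 0.08 and 0.09). The SUM159 libraries with PF-06873600 are also those in which PTPRC and PECAM1 were highest, at 19.1 and 26.6 CPM. Both were already present in untreated SUM159, at 9.62 and 11.2 CPM. Their part in the differences between lines was not tested.

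Untreated SUM159 and untreated A549 differed in 6 of the 7 genes (78.7% of all genes, 41.9% higher and 36.8% lower). DCAF15 was 3.34-fold higher in SUM159, a log2 difference of 1.74 (SE 0.11, edgeR adjusted p = 2.78e-11). CUL4B was 2.66-fold higher (log2 difference 1.41, SE 0.06, edgeR adjusted p = 3.71e-14) and CUL4A 1.91-fold higher (log2 difference 0.93, SE 0.05, edgeR adjusted p = 5.76e-12). RBM39 and DDB1 were higher by log2 differences of 0.61 and 0.38 (edgeR adjusted p = 1.71e-07 and 2.44e-06), which shrank to 0.39 and 0.16 under upper-quartile scaling and still passed (adjusted p = 5.56e-05 and 0.0123), and RBM23 was lower by a difference of -0.60 (SE 0.06, edgeR adjusted p = 9.27e-09). The substrate receptor and both scaffolds were thus more abundant in SUM159, while the other known glue substrate was less so. A line and everything that goes with it, the culture medium included, cannot be told apart.

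Levels of different genes can be set side by side only per length. Per kilobase of the MANE Select transcript, untreated A549 had 79.9 CPM of DDB1, 28.1 of RBM39, 15.3 of CUL4A, 15.1 of CUL4B, 13.6 of DDA1, 10.1 of RBM23 and 4.38 of DCAF15. CUL4A and CUL4B overlapped, and the other neighbours in this order did not. On this scale DCAF15 came last. In untreated SUM159 the same scale gave 104 CPM per kilobase for DDB1, 42.9 for RBM39, 40.3 for CUL4B, 29.2 for CUL4A, 14.6 for DCAF15, 14.5 for DDA1 and 6.67 for RBM23, with DCAF15 and DDA1 overlapping. The order depended on the length used, and with both other lengths CUL4B came last in untreated A549. Per kilobase of the longest transcript it had 3.72 CPM against 4.38 of DCAF15. Over all merged exons, which are long in CUL4B, untreated A549 had 2.64 CPM per kilobase of CUL4B against 3.36 of DCAF15, and RBM39 (11.9) overlapped DDA1 (11.9) and CUL4A (11.4).

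The genes whose log2(CPM + 1) followed RBM39 most closely over the 10 A549 libraries, among 9620 genes with a mean of at least 10 CPM, were SF3B1 (Pearson r = 0.991), ZFP36L1 (0.990), DNMT3A (0.980), PDGFC (0.978) and ZMYM2 (0.977). SF3B1 encodes the core protein of the U2 particle that binds the branch point. It had a mean of 268.8 CPM in untreated A549, 355.9 with indisulam, 350.6 with the combination, 255.3 with palbociclib and 222.1 with PF-06873600, which is the order of the groups in RBM39. In SUM159, which played no part in the choice, SF3B1 went from 373.2 to 273.3 CPM with PF-06873600 (log2 fold change -0.45, SE 0.06, edgeR adjusted p = 3.66e-06). That is the direction of RBM39, and 35.6% of all genes were also lower in that comparison. ZFP36L1 went from 323.7 to 302.0 CPM in SUM159, and DNMT3A, PDGFC and ZMYM2 had higher means after PF-06873600 there, at 10.4 against 6.55 CPM, 113.9 against 78.4 CPM and 61.3 against 44.8 CPM. Among the 7 genes CUL4B was nearest to RBM39 (r = 0.869) and CUL4A farthest (r = -0.633). For DCAF15 the closest genes were UPF1 (r = 0.865), PNPLA6 (0.833), IGFBP2 (0.830), MCOLN1 (0.829) and SLIT3 (0.819), and DDB1 had r = 0.750. These correlations are a description over 10 libraries that fall into 5 treatments and share their scaling.

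**Figure D4:**
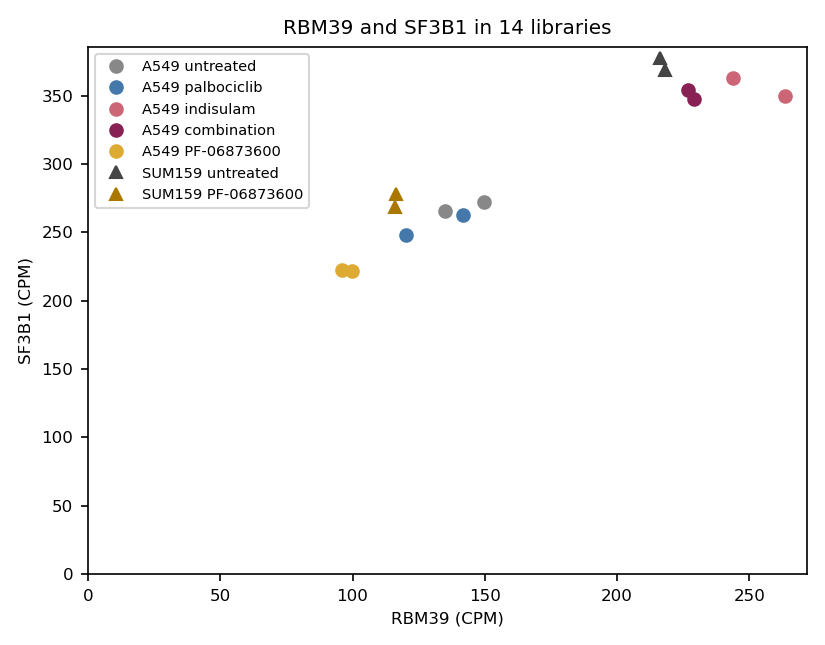
RBM39 (horizontal axis, CPM) against SF3B1 (vertical axis, CPM) in 14 libraries, circles for A549 and triangles for SUM159, coloured by treatment. In A549 the means run from 97.9 CPM of RBM39 and 222.1 CPM of SF3B1 with PF-06873600 to 253.6 and 355.9 CPM with indisulam.

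The 7 genes were set beside 57 further genes of the same pathways in 5 lists, chosen by function with earlier results of these data known. Of the 56 that could be tested in A549, indisulam had 15 higher and 11 lower, the combination 13 and 19, and PF-06873600 10 and 14, which is 46.4%, 57.1% and 42.9% of the genes. Palbociclib had 3 higher and 2 lower (8.93%). In SUM159, of 56 tested, PF-06873600 had 7 higher and 38 lower (80.4%). The shares of all genes that passed were 45.5%, 65.2%, 56.3% and 15.7% in these A549 comparisons. In SUM159 38.1% of all genes were higher and 35.6% lower, so there the calls in the lists lay more on the lower side than those over all genes, as a description with no test.

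Genes of proteins with a U2AF homology motif, the fold RBM39 uses to meet other splicing factors, and their partners moved both ways in A549. Of 7 tested, indisulam had 3 higher (SF3B1, SF1 and UHMK1) and HTATSF1 lower, with median 0.12, beside 28% of all genes higher and 17.5% lower. U2AF1 was not tested in A549, where it had at most 7 counts in any library. In SUM159 U2AF1 had 7 to 24 counts and is among the 8 tested there. Its partner U2AF2 had a mean of 263 CPM in untreated A549. Why so few reads were counted on U2AF1 was not tested, and its counts are not taken as its level of expression. With indisulam in A549, SF3B1 had a log2 fold change of 0.40 (SE 0.05, edgeR adjusted p = 2.87e-05) and SF1, which binds the branch point first, 0.36 (SE 0.06, edgeR adjusted p = 4.52e-04). In SUM159 PF-06873600 lowered 6 of 8, with median -0.84, beside 38.1% of all genes higher and 35.6% lower. Among the 6 were U2AF2, the large U2AF subunit (-0.97, SE 0.06), SF1 (-0.93, SE 0.06) and RBM17 (-0.90, SE 0.05). The fall of RBM39 there (-0.90) was of the size of theirs. In the combination 2 were higher and 2 lower, beside 35.1% of all genes higher and 30% lower. With PF-06873600 in A549 1 was higher and 3 lower, beside 28.5% and 27.8% of all genes.

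The machinery that serves all cullins (the RING protein, conjugating enzymes, the NEDD8 pathway that switches cullins on, the exchange factor and the COP9 signalosome that switches them off) had 4 genes higher and 4 lower of 18 with indisulam. Over all genes 28% were higher and 17.5% lower. CAND1, which lets a cullin exchange its receptor, was among the 4 higher (log2 fold change 0.48, SE 0.06, edgeR adjusted p = 1.39e-05). With the combination 2 were higher and 7 lower, beside 35.1% of all genes higher and 30% lower. The 7 included the signalosome subunit COPS3 (-0.59, SE 0.07) and the RING protein RBX1 (-0.57, SE 0.10). With PF-06873600 it was 3 higher and 3 lower in A549, with a median of 0.00, beside 28.5% of all genes higher and 27.8% lower. In SUM159 it was 1 higher and 15 lower, with a median of -0.53, beside 38.1% of all genes higher and 35.6% lower. COPS3 was at -0.77 (SE 0.05) there.

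Other receptors that use DDB1 and CUL4 had 5 genes higher and 5 lower of 22 with indisulam, 6 and 7 with the combination and 5 and 5 with PF-06873600 in A549. Over all genes the shares were 28% higher and 17.5% lower, 35.1% and 30%, and 28.5% and 27.8%. DDB2, the receptor for ultraviolet damage and a target of p53, changed most with indisulam, by a log2 fold change of 1.45 (SE 0.10, edgeR adjusted p = 4.18e-08), and was at 1.27 with the combination, 1.59 with PF-06873600 in A549 and -0.80 with PF-06873600 in SUM159. DTL, the receptor that clears the licensing factor CDT1 in S phase, had a log2 fold change of -2.04 (SE 0.11, edgeR adjusted p = 7.94e-10) with the combination and of 1.22 (SE 0.08) with PF-06873600 in A549. DCAF11 was lower in all 3, with log2 fold changes of -0.55, -1.27 and -0.78. In SUM159 5 were higher and 10 lower of 21, beside 38.1% of all genes higher and 35.6% lower. DCAF1, also a receptor for viral accessory proteins, was at -1.21 there (SE 0.07, edgeR adjusted p = 9.63e-10). CRBN, the receptor of the thalidomide glues, was not changed past the threshold by indisulam (0.09, SE 0.09, edgeR adjusted p = 0.450) and was lower with the combination (-0.32, SE 0.09, edgeR adjusted p = 0.00626). The combination was not the lowest A549 group in CRBN. Its means were 30.9 CPM in untreated A549, 26.5 with palbociclib, 24.8 with the combination and 20.7 with PF-06873600.

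The other cullins had 3 of 6 genes higher with indisulam and none lower, CUL3 among them (log2 fold change 0.38, SE 0.07, edgeR adjusted p = 8.85e-04), with a list median of 0.23, beside 28% of all genes higher and 17.5% lower. The combination had 3 higher and 1 lower, led by CUL7 (0.59, SE 0.12, edgeR adjusted p = 6.60e-04), beside 35.1% of all genes higher and 30% lower. With PF-06873600 1 was higher and 1 lower in A549, beside 28.5% of all genes higher and 27.8% lower. In SUM159 CUL7 was higher (1.17, SE 0.08) and 4 others lower, beside 38.1% and 35.6% of all genes. CUL3 was at -0.69 (SE 0.06) there. The CDK-activating kinase, whose cyclin CCNH is needed to switch on the kinases that palbociclib and PF-06873600 inhibit, had CCNH lower with indisulam, from a mean of 23.1 to 9.85 CPM (log2 fold change -1.23, SE 0.11, edgeR adjusted p = 3.71e-07). CCNH was also lower with the combination (-1.30, SE 0.11), and with PF-06873600 (-0.29 in A549 and in SUM159). With palbociclib CCNH lay between 19.0 and 19.5 CPM, below the 22.1 to 24.1 CPM of untreated A549, but 0 of the 3 genes of this list passed the test. MNAT1, which holds the kinase and cyclin together, was at -0.05 (SE 0.10, edgeR adjusted p = 0.693) with indisulam, and was lower with the combination (-0.45, SE 0.10) and with PF-06873600 in A549 (-0.55, SE 0.10) and SUM159 (-0.49, SE 0.09). CDK7, the kinase itself, did not pass the test with indisulam (0.20, SE 0.10, edgeR adjusted p = 0.130), and was lower with PF-06873600 in SUM159 (-0.20, SE 0.06, edgeR adjusted p = 0.00924).

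**Figure D5:**
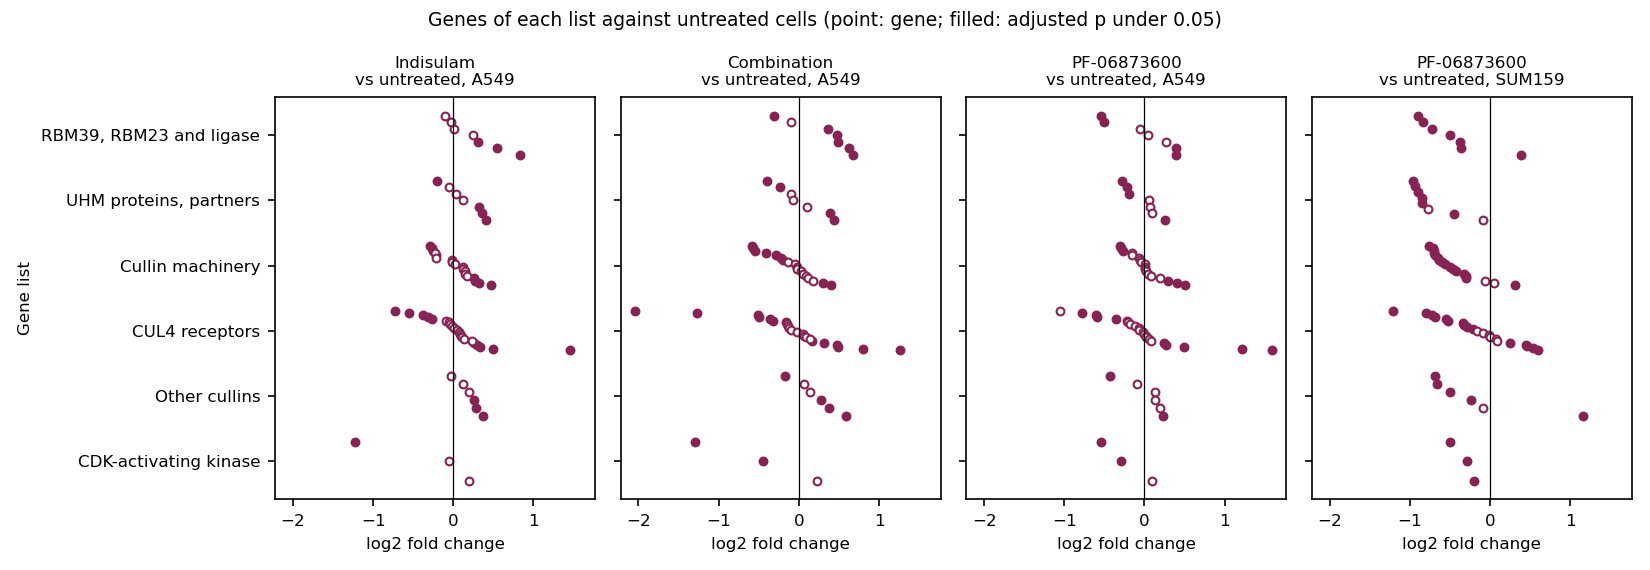
Log2 fold change against untreated cells (horizontal axis) of the genes of 6 lists in 4 comparisons; each point is 1 gene, filled where the edgeR adjusted p is under 0.05. In SUM159 most points of the U2AF homology motif and machinery lists lie below 0 (6 of 8 and 15 of 18 lower, beside 35.6% of all genes). With indisulam the lowest point of the CDK-activating kinase is CCNH at -1.23.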

How the data were processed

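The authors prepared stranded mRNA libraries of A549 and SUM159 and, per the labels, extracted total RNA; the submitters' processing notes name HISAT2 2.2.1, HTSeq and GRCh38. The authors deposited 1 table of raw read counts per library, without normalization, over 60683 gene identifiers; the annotation release and the use of strand in counting are not given in the sources used here. Reads not assigned to a gene (4.16 to 6.81% with no feature, 3.38 to 4.00% ambiguous) were left out.

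From these counts, libraries were scaled by their total. Genes were kept with filterByExpr and tested with edgeR 4.0.16 (R 4.3.3) by its quasi-likelihood F test, adjusted after Benjamini and Hochberg over all genes, at a threshold of 0.05. One model held the 10 A549 libraries (15780 genes), one the 4 SUM159 libraries (15055 genes) and one all 14 (17279 genes). A standard error is the size of a log2 fold change over the root of its F. Symbols, positions and lengths came from GENCODE release 44 on hg38, which matched 60370 identifiers. The 7 genes, the 5 pathway lists and the marker lists were chosen with earlier results of these data known. Of each list, up to 3 genes were named per comparison, those with the largest change among genes past the threshold with at least 10 CPM in the higher group; the named receptor CRBN, CDK7 and genes counted in 4 or fewer were added after their values were seen. Limits from counts cover counting error only, since reads carry no molecular identifiers.

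Alternatives were TMM and upper-quartile scaling, DESeq2 1.42.0, no filter or a mean of at least 50 counts, a replicate block, models of only the groups compared or of both lines, and leaving out each replicate. In data simulated on the indisulam comparison over 15257 genes, with 200 changed, the test recovered 18.0% of 1.25-fold, 51.1% of 1.5-fold, 70% of 2-fold and 98.1% of 4-fold changes, and 11.5% of its calls were false.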

Additional observations from a re-analysis of the deposited data

Results flagged for a closer look

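Differences between responses were tested as interaction terms with edgeR's quasi-likelihood test, and 6 of them passed an adjusted p of 0.05 among the 7 genes. DDA1 rose by more with the combination than the single drugs summed to, by 0.47 on the log2 scale (SE 0.10, adjusted p = 0.00247), with both combination libraries (77.9 and 75.0 CPM) above all 4 single-drug libraries. The log2 fold change with PF-06873600 was lower in SUM159 than in A549 for DCAF15 (-0.996, SE 0.16), CUL4A (-0.79, SE 0.08), DDB1 (-0.77, SE 0.07), CUL4B (-0.41, SE 0.08) and RBM39 (-0.36, SE 0.10). Of these, DDB1 was higher in both treated A549 libraries and lower in both treated SUM159 libraries than in the untreated libraries of the same line, while RBM39 was lower in both lines. Outliers within a group were not tested, since each group had 2 libraries.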

How the results depend on the processing

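With 2 libraries per group that the series calls technical duplicates, the tests rest on a spread shared across genes and treatments. The duplicates did not differ equally. Their chi-square per degree of freedom was 10.5 in untreated A549 and 9.99 in untreated SUM159. In the treated groups it ran from 1.66 (PF-06873600 in A549) to 5.47 (palbociclib). A shared spread may therefore understate the error of comparisons with untreated cells. In the simulated data, changes of the smallest size were mostly missed. Far fewer genes were changed there than passed in the indisulam comparison itself (45.5%), and the adjusted p depends on that share. The simulated recovery therefore does not give the share of changes missed among the 7 genes. DCAF15, with 141 to 153 counts in untreated A549, had the widest errors.

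Members called ranged, over the fits that left out 1 replicate, from 5 to 6 for the combination against untreated, 2 to 3 against indisulam and 1 to 2 for the interaction, where 2 were called without A549 untreated replicate 2, and stayed at the main count in the other 7 comparisons. RBM39 kept its direction and call in every alternative for indisulam, the combination against untreated or palbociclib, and PF-06873600 in each line, between 0.76 and 0.91 for indisulam and between -0.61 and -0.46 and -0.91 and -0.80 for PF-06873600 in A549 and SUM159. The RBM39 difference between combination and indisulam passed only with the groups compared alone (-0.15, adjusted p = 0.0140), where the number of libraries in the fit differs, and its difference between lines missed only with upper-quartile factors (-0.23, adjusted p = 0.0654). The RBM39 interaction, uncalled throughout, went from -0.148 to 0.090 over fits without 1 replicate.

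Other changes of sign were of uncalled values near 0. For DDA1 with indisulam they were -0.074 (TMM), -0.047 (upper-quartile) and -0.066 (DESeq2), and fits without 1 replicate ran from -0.043 to 0.056. For palbociclib, such fits ran from -0.042 to 0.056 for DDA1 and from -0.075 to 0.065 for CUL4B, which was at 0.0015 with TMM and with DESeq2. CUL4A between combination and indisulam was at -0.0036 (TMM), and from -0.015 to 0.019 without 1 replicate. Without 1 replicate, CUL4B with PF-06873600 in A549 ran from -0.021 to 0.119 and the DCAF15 interaction from -0.239 to 0.0095. The differences between lines were 0.058, 0.127 and 0.046 for RBM23 and 0.050, 0.119 and 0.038 for DDA1 with TMM, upper-quartile and DESeq2, and ran from -0.022 to 0.020 and from -0.058 to 0.040 without 1 replicate. DDA1 between untreated lines was at -0.0094 (TMM) and -0.124 (upper-quartile). The cause was not tested. Upper-quartile scaling moved the median of all genes to 0.12 from 0.02 for PF-06873600 in SUM159, to 0.16 from 0.04 for the difference between lines and to -0.13 from 0.08 between untreated lines. CUL4A was also called lower against palbociclib with TMM (-0.16, adjusted p = 0.0336).

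RBM39 in untreated A549 was 11.9 CPM per kilobase of merged exons, 24.1 of the longest transcript and 28.1 of the MANE Select transcript, a length added after the data were seen. Palbociclib changed 2478 genes in the A549 model, 949 in a model of only its groups and 1589 with DESeq2. It changed 1301 without palbociclib replicate 2 and 1472 without palbociclib replicate 1, which bears on the 15.7% of all genes given beside the 7.

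The replicate numbers of the labels are not said to pair samples. Deviations of same-numbered libraries had r = 0.117 between indisulam and untreated and -0.160 between palbociclib and untreated. A replicate block changed no call of the 7 genes; over all genes it gave 2337 calls for palbociclib, and 3023 with the palbociclib numbers crossed, an alternative added after the data were seen.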
